A study of Mus musculus with 6 samples.

Results

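Integrins, the actin-binding protein Vasp and the cytoplasmic proteins of focal adhesions were compared between liver tumors and normal livers of C3H mice. The set held 39 genes of the 34741 measured, namely 17 integrin alpha chains, 8 integrin beta chains and 14 cytoplasmic proteins, and it was defined by gene name as 59 of the 55681 array probes. Gene expression had been measured on 1-color microarrays in 3 normal livers and 3 liver tumors of male C3H/HeN mice, 74 to 75 weeks old. All the mice were control-group animals kept on a standard diet and tap water, and the methods state that the tumors had arisen spontaneously and carried a Ha-ras mutation. Tumor and normal tissue were taken whole, so each array measured hepatocytes together with the other cells of the tissue. The labels do not say whether a tumor and a normal liver came from 1 mouse, and p-values here measure only the spread between these samples.

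Integrins are receptors made of 1 alpha and 1 beta chain that bind extracellular matrix or other cells outside the cell. Inside, talin and kindlin bind the beta tail and switch the receptor on, and vinculin, paxillin, Ilk and alpha-actinin couple it to actin filaments in plaques called focal adhesions. Vasp and its relatives elongate actin filaments at these sites and are brought there by zyxin. In the liver, hepatocytes carry few integrin types, while Kupffer cells (resident macrophages), other leukocytes, bile duct cells, endothelium and stellate cells carry sets of their own.

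Expression values are the background-subtracted signal of a probe divided by the 75th percentile of its array, so that 1 is the 75th percentile. A gene was represented by its brightest tested probe, and levels of different genes are not compared because probes differ in efficiency. A summed value, given below for some marker lists, takes in all measured markers, follows the brightest probes and does not measure cell number. A gene was tested when a probe had signals clearly over background in the 3 arrays of 1 group or of both (the scanner's flag for well above background), and it was called when the adjusted p was under 0.05. All normal livers were hybridised on 1 slide and all tumors on another, with a median local background of 42 to 45 and 22 to 23 signal units respectively. Slide and tissue therefore cannot be told apart in any result below. The hepatocyte markers Alb, Ttr and Hnf4a were present on all 6 arrays, and 7 of 8 hepatocyte markers were not called (median log2 difference -0.04). No spot was saturated.

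Promoter sequences are shown first for 6 genes that the results turn on. Vasp is one of the genes that the study picked with these arrays, Itga11, Itga3 and Actn1 rose, and the leukocyte chains Itgam and Itgb7 fell. Each window runs from 250 bases before to 50 bases after the annotated start (RefSeq, GRCm38.p6), 5′ to 3′ on the gene's own strand. Capitals mark matches on either strand to Sp1 (GGGCGG), PU.1 (GAGGAA), AP-1 (TGANTCA) or TEAD (GGAATG), and the CArG box was also searched. None of these motifs contains another.
Vasp: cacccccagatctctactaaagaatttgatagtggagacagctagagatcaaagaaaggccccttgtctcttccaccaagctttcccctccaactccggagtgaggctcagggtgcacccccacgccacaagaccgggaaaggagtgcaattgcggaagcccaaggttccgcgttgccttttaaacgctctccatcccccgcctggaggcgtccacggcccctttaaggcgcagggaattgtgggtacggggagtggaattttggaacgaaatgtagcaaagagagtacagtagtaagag
Itga11: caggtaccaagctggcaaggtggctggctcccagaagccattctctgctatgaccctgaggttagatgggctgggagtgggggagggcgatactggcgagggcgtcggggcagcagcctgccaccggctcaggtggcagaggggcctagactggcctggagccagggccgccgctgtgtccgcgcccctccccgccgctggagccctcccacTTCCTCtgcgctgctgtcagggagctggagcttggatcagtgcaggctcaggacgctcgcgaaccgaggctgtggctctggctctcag
Itga3: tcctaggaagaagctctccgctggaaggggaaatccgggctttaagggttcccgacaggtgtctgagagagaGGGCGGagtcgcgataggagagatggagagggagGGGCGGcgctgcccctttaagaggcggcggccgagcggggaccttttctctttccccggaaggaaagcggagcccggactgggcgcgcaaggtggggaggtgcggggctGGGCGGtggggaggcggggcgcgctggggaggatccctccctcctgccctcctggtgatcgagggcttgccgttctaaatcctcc
Actn1: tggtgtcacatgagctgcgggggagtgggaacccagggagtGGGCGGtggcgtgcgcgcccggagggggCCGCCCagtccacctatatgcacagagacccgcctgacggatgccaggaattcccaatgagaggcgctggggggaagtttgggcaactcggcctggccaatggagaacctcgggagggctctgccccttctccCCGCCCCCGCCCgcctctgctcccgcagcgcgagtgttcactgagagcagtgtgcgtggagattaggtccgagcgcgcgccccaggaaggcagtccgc
Itgam: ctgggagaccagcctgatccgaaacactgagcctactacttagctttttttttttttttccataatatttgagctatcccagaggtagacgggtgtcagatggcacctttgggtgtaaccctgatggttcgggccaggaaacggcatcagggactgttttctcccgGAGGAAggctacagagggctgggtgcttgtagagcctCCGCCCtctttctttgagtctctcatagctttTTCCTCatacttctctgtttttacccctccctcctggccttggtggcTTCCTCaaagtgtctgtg
Itgb7: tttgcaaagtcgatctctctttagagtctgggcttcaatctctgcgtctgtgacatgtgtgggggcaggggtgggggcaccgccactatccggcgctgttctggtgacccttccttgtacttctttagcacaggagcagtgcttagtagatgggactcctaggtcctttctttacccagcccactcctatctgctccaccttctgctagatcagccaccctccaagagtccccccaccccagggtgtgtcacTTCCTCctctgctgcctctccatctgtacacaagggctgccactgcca

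The Vasp window (chr7:19271805-19272104, minus strand) held none of the 5 motifs and 13 CpG dinucleotides, against a median of 7 over 32851 RefSeq promoter windows of the same length. Those of Itga11 (chr9:62677605-62677904, plus strand), Itga3 (chr11:95076665-95076964, minus strand) and Actn1 (chr12:80260314-80260613, minus strand) held 16, 24 and 24 CpG. The Itga3 window had 3 Sp1 matches and the Actn1 window 4. The Sp1 motif itself contains a CpG, and both windows exceed the upper quartile of 20 CpG over all windows. At least 1 Sp1 match was present in 35.7% of all windows, in 16 of the 28 genes with a promoter entry and in 2 of the 5 called higher. The Itgam window (chr7:128062390-128062689, plus strand) held 3 matches to the motif of PU.1, a transcription factor of myeloid and B cells, starting 84 and 15 bases before and 32 bases after the start. The Itgb7 window (chr15:102231886-102232185, minus strand) held 1 such match, as did that of Itga11, and 28.3% of all windows held at least 1. Of the 39 genes 28 had a promoter entry, and 12 of these held at least 1 PU.1 match in any of their windows. At least 1 PU.1 match was present in 3 of the 4 genes called lower that had an entry and in 2 of the 5 called higher, Itga11 and Itga3. For Itga3 it lay in a second annotated window (chr11:95069149-95069448, minus strand), which held 5 CpG and 1 match each to PU.1, AP-1 and Sp1 and is not printed. These are matches of letters and not binding sites.

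Of the 39 genes 35 could be tested, and 13 of them (37.1%) were called, against 34.2% of the 18567 genes tested. Expression of 7 genes rose in the tumors (Itga11, Itga6, Itga3, Vasp, Actn1, Pxn and Itga1), where 13.1% of all genes did. Expression of 6 fell (Itgam, Tln2, Itgb7, Itga5, Itga9 and Parva), where 21% of all genes did. The share called was thus close to the background, and the median log2 difference (tumor minus normal) was 0.13 over the 35 genes and -0.13 over all genes. With arrays scaled to their spike-in controls the median of all genes moved to 0.05, and 8 of the 35 rose and 3 fell, while over all genes the calls changed from 2441 higher and 3905 lower to 2486 higher and 1515 lower. The number that fell was also 3 without liver tumor 1, without normal liver 2 or without normal liver 3. Expression did not overlap between the groups in 20 of the 35 genes (57.1%), against 51.8% of all genes. A permutation test on 3 against 3 arrays cannot go below an exact p of 0.1.

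**Figure D1:**
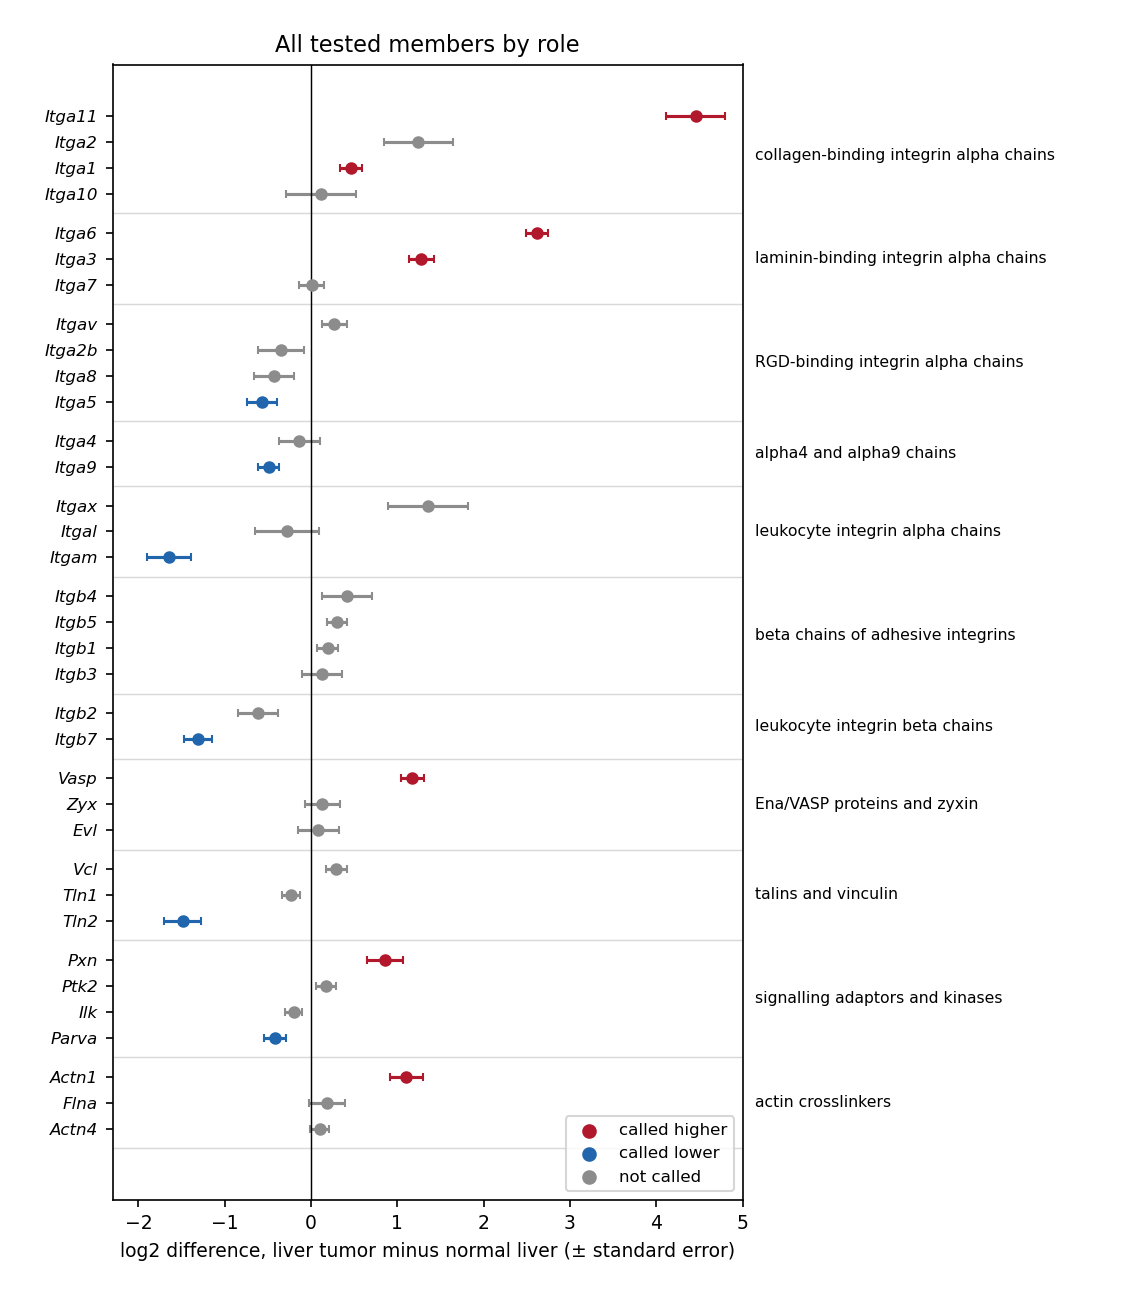
The log2 difference between 3 liver tumors and 3 normal livers (x axis, liver tumor minus normal liver, bars ± standard error) is plotted for the 35 tested genes, grouped by role. Red points are the 7 genes called higher, blue points the 6 called lower and grey points the 22 not called, and the laminin-binding chains Itga6 and Itga3 and the collagen-binding chain Itga11 lie farthest to the right among the integrins called.

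Of the 3 laminin-binding alpha chains 2 rose, Itga6 and Itga3. Itga6, the alpha chain of the receptors for basement membrane laminin, had expression values of 2.97, 2.67 and 2.65 in the normal livers and 17.2, 19.0 and 14.9 in the tumors. All tumors lay far above all normal livers, a 6.13-fold rise (log2 difference 2.62, SE 0.13, adjusted p = 0.000119). A second Itga6 probe gave 1.93, 1.63 and 1.48 in normal livers and was also called (log2 difference 2.13). Itga3, the alpha chain of another laminin receptor, measured 0.389, 0.344 and 0.304 in the normal livers and 0.896, 0.882 and 0.733 in the tumors. It rose 2.42-fold (log2 difference 1.28, SE 0.14, adjusted p = 0.00200), with a log2 difference of 0.69 after normexp background correction. Itga7, a laminin-binding chain known mainly from muscle, was 4.62 ± 0.361 in normal livers and 4.66 ± 0.643 in tumors (mean ± SD, n = 3), a log2 difference of 0.01 that was not called. Itgb4, the beta chain that joins Itga6 in hemidesmosomes, was 0.171 ± 0.0365 and 0.233 ± 0.0732 and was not called either (log2 difference 0.42, adjusted p = 0.300, -0.0080 with normexp background correction). Bile duct cells carry Itga6, Itga3 and Itgb4 in normal liver, and none of their 5 tested markers was called, by limma or by the methods' t-test, or reached an unadjusted p under 0.05, although 1 was called lower without liver tumor 1 or liver tumor 3. The summed value of the bile duct markers was 2.62 to 3.38 in normal livers and 2.27 to 2.51 in tumors. The list held 8 markers, of which 5 passed the background filter. The part of bile duct cells in the Itga6, Itga3 and Itgb4 values was not tested.

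Of the 4 collagen-binding alpha chains 2 rose, Itga11 and Itga1. Itga11, a chain of mesenchymal cells, had values of 0.114, 0.147 and 0.0791 in the normal livers, of which 1 was well above background, and 1.61, 3.58 and 2.44 in the tumors. The log2 difference was 4.46 (SE 0.34, adjusted p = 0.000528), and it rests on normal values near background. With normexp background correction the log2 difference was 2.49. Itga1, another collagen-binding chain, was 1.05, 1.19 and 1.27 in normal livers and 1.64, 1.46 and 1.74 in tumors, a rise of 1.38-fold (log2 difference 0.46, adjusted p = 0.0350). Its second probe differed by 0.18 and was not called, and the call on the first was lost without any single array other than liver tumor 2 (adjusted p 0.0510 to 0.0928). Itga2, the epithelial and platelet collagen receptor chain, was flagged as above background in none of the normal livers (0.0852, 0.0649 and 0.0274) and in all 3 tumors (0.140, 0.128 and 0.113). The mean of the tumors (-2.98 on the log2 scale) lay just under the mean of the lowest levels that the normal arrays could measure (-2.94), so no fold is given. The fit did not call Itga2 (adjusted p = 0.0556), although it did without normal liver 1 and without normal liver 3 (adjusted p 0.0350 to 0.0367). Itga10, the cartilage-type collagen chain, was 0.300 ± 0.0705 and 0.351 ± 0.175.

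**Figure D2:**
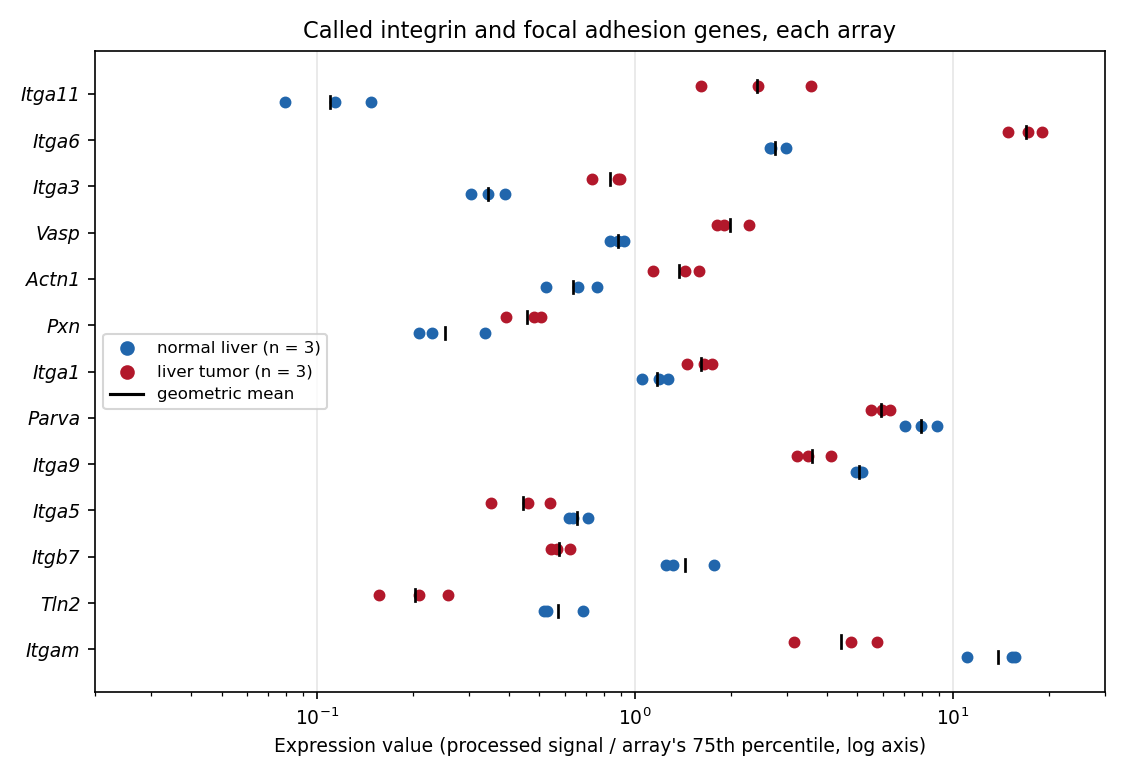
Expression values (x axis, log scale, signal divided by the 75th percentile of the array) are plotted for the 13 called genes on each of 6 arrays, with normal livers in blue, liver tumors in red and the geometric mean of each group as a black line. The 3 points of a group do not overlap those of the other group in any of the 13 genes, with the widest gap for Itga11 and a narrow one for Itga1, Itga5, Pxn and Parva. The 13 genes were picked by their calls on these same arrays, so this separation adds no support. Groups did not overlap in 51.8% of all 18567 genes tested.

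Itga11 is known mainly from cells of the stroma, so stromal markers are given beside it and Itga1. Of 11 tested markers of stellate cells and fibroblasts 7 fell and 2 rose (1 rose without liver tumor 2, liver tumor 3, normal liver 1 or normal liver 3), and their summed expression value was 92.8 to 109 in normal livers and 30.2 to 51.6 in tumors. Dcn made up most of this sum in both groups. Dcn, a small matrix proteoglycan, fell from 83.2 ± 11.5 to 27.8 ± 9.95, and Lrat, the retinol-storing enzyme of quiescent stellate cells, fell from 0.679 ± 0.0470 to 0.196 ± 0.0582 (log2 difference -1.83, and -0.91 with normexp). Col1a1, a chain of type I collagen, rose from 0.664 ± 0.271 to 1.88 ± 0.351 (log2 difference 1.58, adjusted p = 0.0154), in the same direction as Itga11. The collagen genes Col1a2 and Col3a1 of the same list were not called (log2 differences 0.53 and 0.29, adjusted p = 0.146 and 0.270). Of 4 tested smooth muscle markers 1 rose and 1 fell, with a median log2 difference of 0.83, and their summed value was 8.62 to 10.3 in normal livers and 10.6 to 18.4 in tumors. Tagln made up most of that sum. Actg2, the enteric smooth muscle actin, was at background in every normal liver and at least 2.96-fold higher in tumors. The limma adjusted p of its measured signals was 0.0211 (0.0502 without normal liver 2), and this p does not test the bound. Des, the intermediate filament protein desmin, which is also a stellate cell marker, fell from 0.204 ± 0.0146 to 0.113 ± 0.00780. Acta2, the smooth muscle actin of contractile stromal cells, was 0.943 ± 0.151 and 2.30 ± 1.33 and was not called (adjusted p = 0.0587), and Tagln was 7.85 ± 0.887 and 11.2 ± 2.21 (adjusted p = 0.0748). Without liver tumor 3, with normexp or with the intensity trend 3 of the 4 were called higher. Myh11 and Cnn1, 2 further markers of contractile smooth muscle, did not pass the background filter. Of 10 tested endothelial markers 3 fell (none with spike-in scaling), and their summed value was 110 to 124 in normal livers and 84.9 to 95.0 in tumors. That value was mostly Clec4g, Stab2 and Kdr, of which Kdr was not called (log2 difference -0.003). In whole tissue, fewer cells of a type and less RNA per cell cannot be told apart, and the part of these markers in the integrin values was not tested.

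Of the 4 alpha chains that recognise the RGD sequence of fibronectin and vitronectin 1 fell and 3 were not called. Itga5, the fibronectin receptor chain, was 0.713, 0.620 and 0.639 in normal livers and 0.459, 0.539 and 0.352 in tumors. This 1.48-fold decrease just passed the threshold (log2 difference -0.57, SE 0.18, adjusted p = 0.0490), and it did not without any single array other than liver tumor 2 (adjusted p 0.0868 to 0.128). Itgav, which pairs with several beta chains to bind vitronectin and latent TGF-beta, was 0.676 ± 0.0851 and 0.816 ± 0.0963. Itga8, a chain of stellate and smooth muscle cells, was 0.629 ± 0.0610 and 0.482 ± 0.150, and it was called only when liver tumor 3 was left out (log2 difference -0.66, adjusted p = 0.0486). Itga2b, the platelet chain, was 0.199 ± 0.0301 and 0.162 ± 0.0589. Of 8 platelet markers 5 were not well above background on any array (Ppbp, Gp1ba, Gp1bb, Gp5 and Gp9). Pf4 was well above background in all 3 normal livers and all 3 tumors, and Treml1 in the 3 tumors alone. These 2 were tested and neither was called (log2 differences 0.22 and 0.27). Gp6 was well above background in 1 normal liver and was not tested.

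Itga9, a chain that binds tenascin, osteopontin and Vcam1, measured 5.09, 4.97 and 5.16 in normal livers and 3.23, 4.15 and 3.51 in tumors. The decrease was 1.41-fold (log2 difference -0.49, SE 0.13, adjusted p = 0.0275), and it lost the threshold without any single array other than liver tumor 2 (adjusted p 0.0673 to 0.0763). Itga4, its leukocyte relative, was 0.318 ± 0.0591 and 0.293 ± 0.0800 and was not called. Its difference was -0.14 with the 75th percentile and 0.041 with spike-in scaling.

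None of the 4 tested beta chains of matrix receptors was called with limma, against 1 at an unadjusted p under 0.05, and none with the methods' t-test. With quantile normalization 1 was called higher, and also with the mean of probes. Itgb5, a vitronectin receptor chain, was the one nearest to a call, at 26.2, 28.0 and 23.4 in normal livers and 32.6, 33.1 and 29.9 in tumors. These groups did not overlap, but the difference was small (log2 difference 0.30, adjusted p = 0.0919). Itgb1, the partner of most matrix-binding alpha chains, including Itga3, Itga6 and Itga11, was 6.06 ± 0.610 and 6.93 ± 0.444 (log2 difference 0.20, adjusted p = 0.260). The other Itgb1 probe was called (log2 difference 0.46, adjusted p = 0.0207). Itgb3, the beta chain of the platelet and vitronectin receptors, was 0.442 ± 0.122 and 0.473 ± 0.0694. Itgb6 and Itgb8, epithelial chains that activate latent TGF-beta, could not be tested: Itgb6 was well above background in 1 normal liver and Itgb8 on no array.

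**Figure D3:**
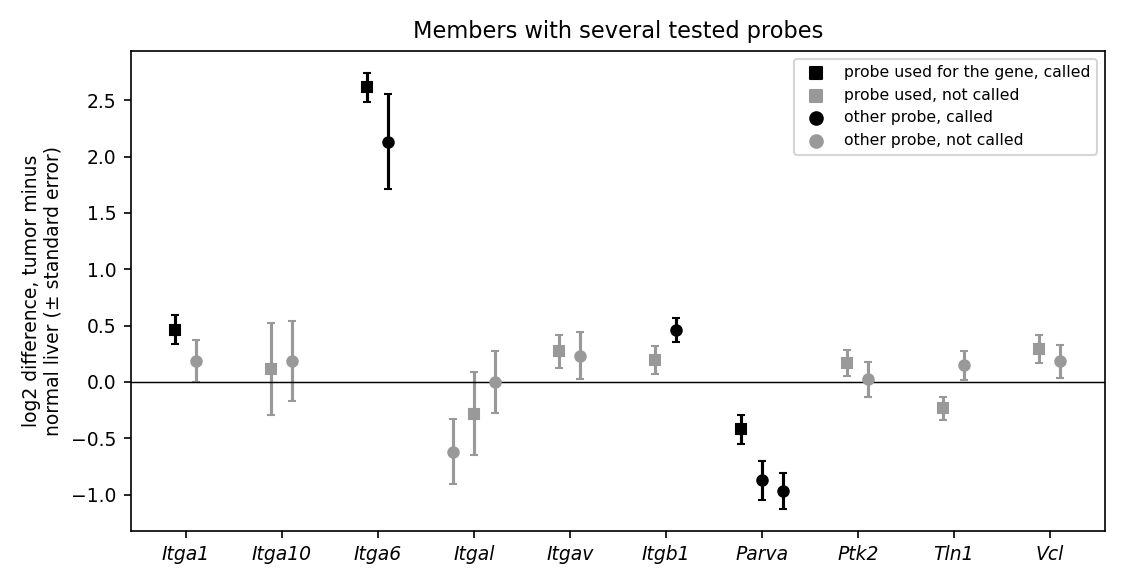
The log2 difference (y axis, tumor minus normal liver, bars ± standard error) is plotted for each tested probe of the 10 genes that had several. Squares are the probe used for the gene, circles its other probes, and black marks a called probe; both Itga6 probes and all 3 Parva probes were called in the same direction, whereas for Itga1 and Itgb1 only 1 of 2 was.

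Of the 5 tested leukocyte chains Itgam and Itgb7 fell, and the other 3 were not called. Itgam, the alpha chain of complement receptor 3 on myeloid cells, fell 3.13-fold, from 15.3, 15.7 and 11.1 in the normal livers to 3.15, 5.77 and 4.79 in the tumors (log2 difference -1.65, SE 0.26, adjusted p = 0.00547). Its other 2 probes did not pass the background filter and were not tested, so the value rests on 1 probe. Itgb7, a beta chain of lymphocytes and other leukocytes that home to mucosa, fell 2.47-fold, from 1.31, 1.25 and 1.77 to 0.625, 0.545 and 0.567 (log2 difference -1.31, SE 0.16, adjusted p = 0.00270). In both genes every tumor lay below every normal liver.

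Itgb2, the shared beta chain of Itgal, Itgam and Itgax, was 1.02, 0.828 and 1.16 in normal livers and 0.800, 0.723 and 0.480 in tumors. The groups did not overlap and the difference was not called (log2 difference -0.61, adjusted p = 0.0855). Itgal, the lymphocyte chain that binds Icam1, was 0.272 ± 0.0884 and 0.231 ± 0.0892, and none of its 3 tested probes was called. Itgax, a chain of dendritic cells and some macrophages, was 0.0936, 0.168 and 0.109 in normal livers, 1 of which was well above background, and 0.556, 0.324 and 0.160 in tumors. It was not called (log2 difference 1.36, adjusted p = 0.0646) except when liver tumor 3, its lowest tumor, was left out (log2 difference 1.82, adjusted p = 0.0163) or with spike-in scaling. Of 7 dendritic cell markers Xcr1 and Clec9a were at background on every array. Flt3, Cd209a and Ccr7 were well above background in no normal liver and in 2 tumors each, and were not tested. Of the 2 tested, Zbtb46 rose (log2 difference 0.62, and 0.24 with normexp) and Siglech was not called (log2 difference 0.11). Itgae, the chain of intraepithelial T cells, was well above background on no array.

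Macrophage markers fell beside these chains. All 11 tested markers of Kupffer cells and macrophages were lower in the tumors and 8 were called lower, with a median log2 difference of -1.08. Their summed value was 120 to 206 in normal livers and 63.0 to 104 in tumors. Clec4f, a lectin restricted to Kupffer cells, fell from 16.8 ± 4.03 to 4.90 ± 2.04, and Timd4, a phosphatidylserine receptor, from 0.858 ± 0.358 to 0.260 ± 0.0357 (log2 difference -1.65, and -0.97 with normexp). With 1 array left out, the number called was between 3 (without liver tumor 2) and 11 (without liver tumor 1), and it was 4 without liver tumor 3, normal liver 1 or normal liver 3. It was 5 with quantile or spike-in scaling, 3 with no filter, 2 with the methods' t-test and 0 with the paired one. None of the 5 tested neutrophil markers was called by limma, against 1 at an unadjusted p under 0.05, and 1 was called lower without liver tumor 1. Neither of the 2 tested B cell markers was called, against 1 at an unadjusted p under 0.05, but 1 was called higher with spike-in scaling, with no filter, with the stricter filter, with the replicate block and without normal liver 1. Of 5 tested T and NK cell markers Cd4 alone was called, and it rose (log2 difference 1.59, and 0.56 with the mean of its probes). Cd8a, Klrb1c, Pax5, Blk and Mpo were at background on every array. The part of these cells in the leukocyte integrin values was not tested.

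**Figure D4:**
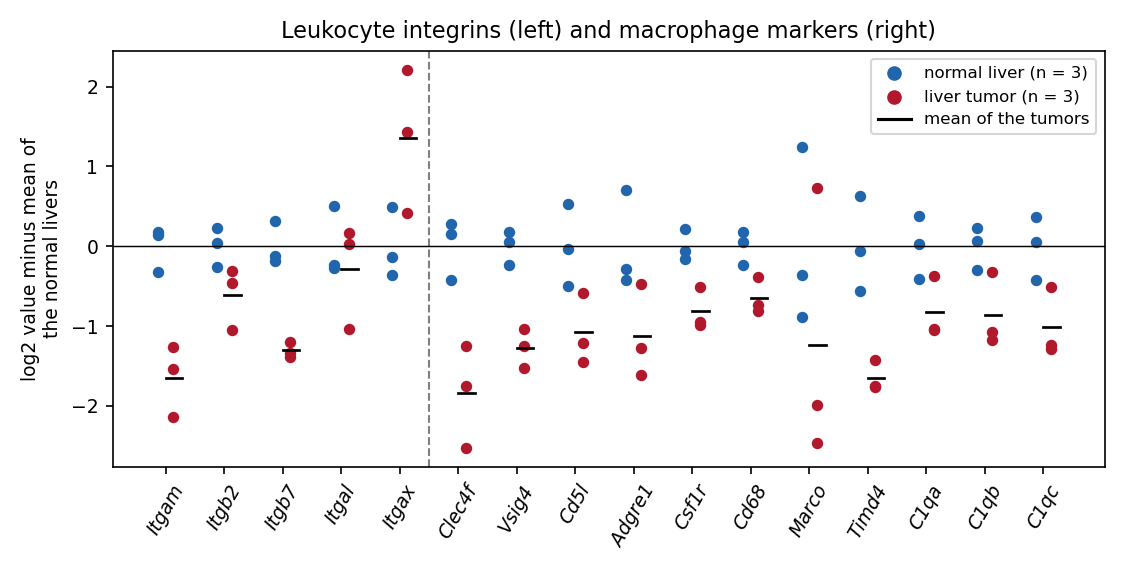
The log2 expression value of each array minus the mean of the 3 normal livers (y axis) is plotted for 5 leukocyte integrin chains, left of the dashed line, and 11 macrophage markers, right of it, with normal livers in blue, tumors in red and the tumor mean as a black line. Tumor means lie below 0 for all 11 markers and for Itgam, Itgb2, Itgb7 and Itgal, and above 0 for Itgax.

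Of the Ena/VASP family Vasp rose, Evl was not called and Enah could not be tested. Vasp (chr7:19256929-19271854) measured 0.922, 0.834 and 0.886 in the normal livers and 2.28, 1.90 and 1.81 in the tumors. Every tumor was above every normal liver, and the rise was 2.26-fold (log2 difference 1.18, SE 0.13, adjusted p = 0.00178). Since the study selected Vasp on these same arrays together with its promoter methylation, this rise is not independent evidence. Evl, its relative in blood and other cells, had a log2 difference of 0.09 and was not called, and Enah, the relative known from neurons and invasive cells, was well above background on no array. Zyx, the LIM protein that recruits the family to adhesions, was 10.5 ± 1.90 and 11.5 ± 2.52 and was not called (log2 difference 0.13, adjusted p = 0.656). Whether the change of Vasp differed from that of Evl or Zyx was not tested.

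Of the talins Tln2 fell and Tln1 was not called. Tln2, the talin known best from muscle and brain, fell 2.81-fold, from 0.516, 0.685 and 0.528 to 0.156, 0.209 and 0.258 (log2 difference -1.49, SE 0.22, adjusted p = 0.00436), and with normexp the log2 difference was -0.70. Tln1, the main talin of non-muscle cells, was 51.1, 52.1 and 50.9 in normal livers and 44.5, 45.7 and 40.9 in tumors. These values did not overlap, but the log2 difference of -0.24 was not called (adjusted p = 0.123), and its second probe differed by 0.15 in the other direction. Vcl, the vinculin that binds stretched talin, was 1.66 ± 0.133 and 2.03 ± 0.187 (log2 difference 0.30, adjusted p = 0.115).

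Pxn, the scaffold paxillin, rose 1.81-fold, from 0.336, 0.230 and 0.209 to 0.507, 0.481 and 0.392 (log2 difference 0.86, SE 0.21, adjusted p = 0.0232). The call did not hold without liver tumor 1, liver tumor 2, normal liver 2 or normal liver 3 (adjusted p 0.0612 to 0.0775). It was also lost with normexp, with no filter and with the methods' t-tests. Over all processing alternatives the log2 difference of Pxn was 0.37 to 1.06. Ptk2, the focal adhesion kinase that binds paxillin, was 1.45 ± 0.0524 and 1.64 ± 0.160 and was not called. Actn1, an actin crosslinker of stress fibres and adhesions, rose 2.15-fold, from 0.659, 0.523 and 0.757 to 1.59, 1.14 and 1.44 (log2 difference 1.10, SE 0.19, adjusted p = 0.00756). The related Actn4 was 29.1 ± 0.475 and 31.2 ± 2.21, and Flna, the filamin that crosslinks actin and binds integrin tails, 6.77 ± 0.625 and 7.88 ± 1.94, both not called.

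The study's expression criteria were a 2-fold change of means, a mean expression value above 1 in either group and an unadjusted p under 0.05. Its shortlist also required a promoter region with altered methylation, an inverse change of expression and a literature link to cancer, which were not applied here. With the methods' t-test run unpaired, 6 of the 35 genes (17.1%) met the expression criteria, against 9.12% of the 18567 genes. Vasp, which the study had picked on these same arrays, was bound to be among the 6. Itga11, Itga6, Vasp and Actn1 were higher and Itgam and Itgb7 were lower. Itga3 and Tln2 changed over 2-fold in limma but stayed below an expression value of 1 in both groups.

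The complex of Ilk, a parvin and a PINCH protein, which anchors integrins to actin next to the kindlins, had members called in both directions. Ilk, the pseudokinase at its core, was 8.13, 8.18 and 8.23 in normal livers and 6.90, 7.13 and 7.31 in tumors, without overlap and without a call (log2 difference -0.20, adjusted p = 0.155). Parva, its actin-binding partner, fell with all 3 of its probes (log2 differences -0.42, -0.87 and -0.97). On the brightest probe, used here for the gene, it was 7.97 ± 0.911 and 5.94 ± 0.410 (adjusted p = 0.0471), and that call was lost without any single array other than normal liver 1 (adjusted p 0.0652 to 0.146). Lims1 and Lims2 encode the PINCH proteins, which compete for Ilk. Lims2 fell 3.11-fold, from 51.7, 49.0 and 41.0 to 7.82, 18.2 and 24.2 (adjusted p = 0.0237, 0.0532 to 0.0712 without any 1 normal liver), while Lims1 rose 1.76-fold, from 2.03, 2.16 and 1.80 to 3.59, 3.41 and 3.54 (adjusted p = 0.00388). Fermt2, the kindlin of adherent cells, fell 2.04-fold, from 25.5, 27.3 and 21.4 to 11.2, 12.5 and 12.6 (adjusted p = 0.00316), and both of its probes were called.

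**Figure D5:**
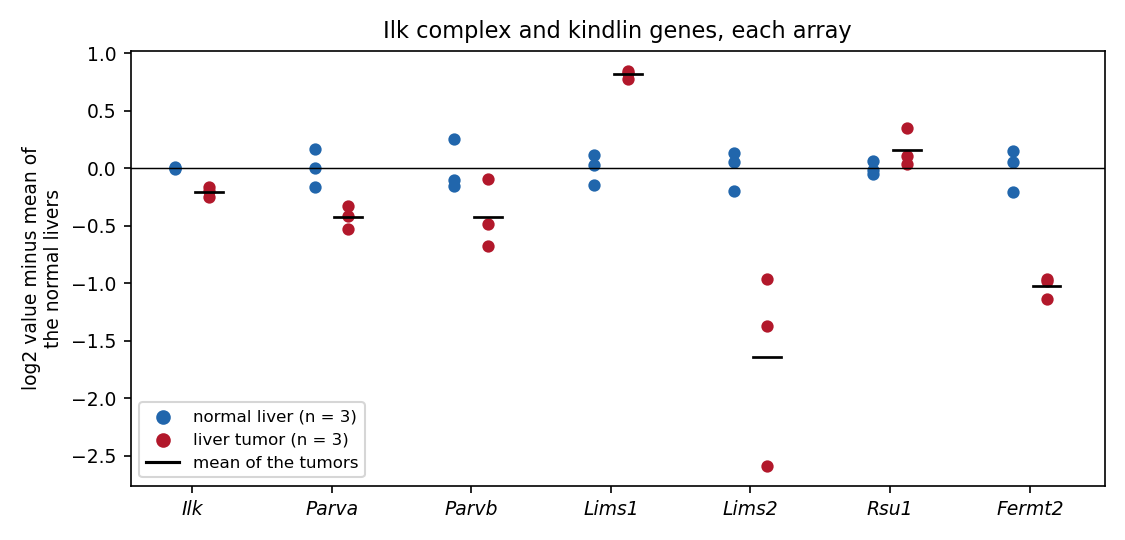
The log2 expression value of each array minus the mean of the 3 normal livers (y axis) is plotted for 7 tested genes, the Ilk complex together with the kindlin Fermt2, with normal livers in blue, tumors in red and the tumor mean as a black line. The 3 tumors lie above the normal livers for Lims1 and below them for Ilk, Parva, Lims2 and Fermt2, with the 3 tumors widely spread for Lims2.

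Other genes of the adhesion pathway were counted as a list of 88. Of these 75 were tested, 17 rose and 10 fell (36.0% called, against 34.2% of all genes), and their median log2 difference was 0.06. With spike-in scaling 18 rose and 4 fell, and without liver tumor 2 or normal liver 2 the number that fell was 6. Of 10 tested tensins and LIM proteins 4 rose and none fell. Ajuba, a scaffold that shuttles between junctions and the nucleus, rose from 0.409 ± 0.00451 to 2.06 ± 0.579 (log2 difference 2.29, and 1.56 with normexp), and the related Limd1 from 6.12 ± 0.485 to 13.4 ± 1.65 (log2 difference 1.13). Fblim1, which links filamin to kindlin, was at background in every normal liver and in the tumors at least 15.4-fold higher. This bound is set by the dimmest signal that the normal arrays could measure. The limma adjusted p of 0.00201 is for the measured signals and not for the bound. With normexp the log2 difference of Fblim1 was 1.99.

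Of 14 tested genes of Src and focal adhesion kinase signalling 2 rose and 3 fell. Git2, an adaptor that binds paxillin, rose 3.93-fold, from 1.51, 1.58 and 1.65 to 8.14, 5.61 and 5.26 (adjusted p = 0.00097). Ptk2b, a relative of Ptk2 found in blood and nerve cells, fell from 12.9 ± 3.16 to 5.74 ± 0.415 (log2 difference -1.15). Nedd9, a scaffold of the same pathway, was likewise at background in every normal liver, and at least 1.98-fold higher in tumors. The limma adjusted p of its measured signals was 0.0244 (0.0550 to 0.0589 without liver tumor 1, liver tumor 3, normal liver 2 or normal liver 3). The bound itself was not tested. With normexp the log2 difference of Nedd9 was 0.23.

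Of 16 tested actin linkers and stress fibre genes 4 rose and 1 fell (2 rose without any 1 normal liver, and 2 fell without normal liver 1). Pdlim7 and Tagln2, both stress fibre proteins, rose from 2.43 ± 0.562 to 11.1 ± 1.95 and from 7.20 ± 0.962 to 28.5 ± 6.24 (log2 differences 2.20 and 1.97, with 1.54 for Pdlim7 from the mean of its probes). Tpm1, a tropomyosin with many isoforms, is the gene counted as lower, from 28.9 ± 1.54 to 16.9 ± 1.28 on its brightest probe, but 4 of its 6 tested probes were called higher, up to a log2 difference of 1.94. With the mean of its probes Tpm1 was called higher (log2 difference 1.15, adjusted p = 0.00208). None of the 6 tested activators and inhibitors of integrins was called by limma, against 1 at an unadjusted p under 0.05, nor by the methods' t-test, but 1 was called lower with the stricter filter, with the intensity trend and without liver tumor 1. Of 13 tested integrin ligands and counter-receptors, collagens and laminins left aside, 5 rose and 1 fell (3 rose without liver tumor 2, normal liver 1 or normal liver 2, and none fell without liver tumor 2). Nid1, the nidogen that ties laminin to type IV collagen, rose 32.5-fold, from 1.59, 1.90 and 1.71 to 59.1, 57.9 and 52.0 (log2 difference 5.02, SE 0.12, adjusted p = 8.69e-06), with all 3 of its probes called. Cdh1, the epithelial cadherin bound by Itgae, rose from 1.77 ± 0.870 to 15.0 ± 1.93 (log2 difference 3.21). Icam1, the ligand of Itgal and Itgam, was 0.215 ± 0.0673 and 0.463 ± 0.0840 (log2 difference 1.14, adjusted p = 0.0207, and 0.0541 without liver tumor 1). With normexp its log2 difference was 0.38.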

How the data were processed

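RNA of 3 normal livers and 3 liver tumors was hybridised by the authors to Agilent SurePrint G3 Mouse GE 1-color arrays. The deposited intensity of each spot is the processed signal of Agilent Feature Extraction (the file headers name version 10.7.3.1, the submitters' processing notes 12.0.3.1), after subtraction of background and spatial trend. The deposited table holds the ratio of each signal to the 75th percentile of its array. The scanner files also hold deposited flags, of type other, for outlier spots and for spots well above background.

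Here control spots and outlier spots were dropped, spots of a probe were averaged, and log2 signal minus log2 of the 75th percentile of all spots was tested with limma 3.58.1 in R 4.3.3 (lmFit and eBayes, two-sided, Benjamini-Hochberg adjustment over 24901 probes whose signals were clearly over background in the 3 arrays of 1 group or of both). Arrays carry no read depth, and 3 per group limit the precision. A bound ("at least N-fold") divides the mean of the bright group by that of the dim group, in which each array counts with its lowest signal flagged as well above background or with the probe's measured signal, whichever was higher. Probes were named through RefSeq by accession (27235), symbol or synonym, otherwise by the array design. Named were all 39 genes, with values on every array for the 12 called with the largest log2 difference (Vasp among them) and for Itga2, and at most 3 called genes of each pathway list, of which 1 list counted in the totals is not reported here. The genes and lists were chosen with earlier results of these data known. The test was run on simulated data first, where it recovered 134 of 200 planted changes with 8 false calls. It found 35.3% of the 2-fold, 78.8% of the 4-fold and 87.9% of the 8-fold changes. A gene that was not called is therefore not shown to be unchanged. Alternatives were normexp correction with an offset of 50, quantile and spike-in scaling, other filters, the deposited ratios, an intensity trend, the mean of probes, the replicate number as a block, the methods' t-test unpaired and paired, and leaving out each array.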

Additional observations from a re-analysis of the deposited data

How the results depend on the processing

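Itga3, Itga6, Itgam, Itgb7, Vasp, Tln2 and Actn1, 7 of the 13 genes called, passed the threshold in 16 of 17 alternatives each, the exception being the methods' paired t-test, and all 13 kept their direction wherever they were run. Itga11 was called in 14 of 16 alternatives and could not be tested with the filter that asks for all 6 arrays. Itga1, Itga5, Itga9, Pxn and Parva were called in 6, 5, 7, 9 and 5 of 17. Against 7 genes higher and 6 lower, the methods' t-test called 4 higher, spike-in scaling 3 lower, no filter on dim probes 3 lower, and leaving out 1 array 5 to 7 higher and 3 to 5 lower. Against 17 pathway genes higher and 10 lower, quantile normalization called 6 lower, spike-in scaling 4 lower, no filter 3 lower, and leaving out 1 array 12 to 17 higher and 6 to 9 lower.

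Whether equal replicate numbers pair the samples could not be settled with 3 samples per group. Deviations of same-numbered samples from their group means correlated at 0.07, 0.13 and 0.05, and those of other pairs at -0.14 to 0.055. Of the 6 samples 4 correlated best with their own number. With the replicate block 7 genes were higher and 3 lower, and 15 and 7 pathway genes. The methods' paired t-test called 0 of either list after adjustment, with 17 of the 35 genes at an unadjusted p under 0.05. It called 0 of all 18567 genes, with 5767 at an unadjusted p under 0.05.

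Among the 39 genes, the differences that turned were all of genes not called. Of the called pathway genes and markers Tpm1 turned, with the mean of probes (log2 difference 1.15). Leaving out 1 array at a time gave log2 differences of -0.24 to 0.55 for Itga10, -0.083 to 0.12 for Itga7, -0.33 to 0.067 for Itga4, -0.50 to 0.095 for Itgal, -0.11 to 0.30 for Itgb3, -0.14 to 0.25 for Evl and -0.042 to 0.26 for Zyx. Itga4 was also 0.041 with spike-in scaling, and Itgb4 -0.0080 with normexp. The cause was not tested. Signals near background limit Itga11, Itga2, Itgax, Nedd9 and Fblim1.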
